A study of Rattus norvegicus with 4 samples.

Results

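The genes described here encode the working parts of the lysosome: its proteases, the hydrolases that take apart glycans, lipids, phosphate and sulfate esters, and proteins of its membrane. The 42 listed genes were matched to array probes by the gene name in the array file, with the endings _predicted and _mapped removed. This gave 36 genes with 42 probes, of which 33 were measured well enough to be tested, among 22187 genes tested in all. Naaa, Ctsa, Lipa and Tfeb stood on the array under older names and were matched only after the names were updated through a RefSeq table. They are given as an addition, and all 4 were tested. No probe was matched to Npc1 or Idua, so their expression is not analysed here. The proteases Ctss, Ctsz, Ctsb and Tpp1 and the inhibitor Cst3 were lower in cells with high p75, and so was Naaa. No other listed gene passed the test in either direction.

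Olfactory ensheathing cells are glia of the olfactory nerve and bulb that surround the fibres of smell neurons. Such cells were cultured from male Fischer rats and separated by flow cytometry on p75, the neurotrophin receptor encoded by Ngfr. The populations are p75High and p75Low, each with a stated purity of 98%. The study had 4 biological replicates, described as paired, and 1 Agilent array for each. Cy5 always marked the p75High sample and Cy3 the p75Low sample, so population and dye cannot be told apart. Both populations came from the same kind of culture, and the labels name no other agent or genotype and give no age. Nothing in the labels ties a replicate to its own animal or culture. The p-values therefore measure only how these samples varied, and that variation may in part be technical.

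Lysosomes are acidic organelles in which cells degrade material taken up from outside and their own worn components. Their soluble enzymes are made in the secretory pathway, tagged with mannose 6-phosphate, sorted to the lysosome and activated at low pH. Cathepsins are the main lysosomal proteases, and cystatins are small proteins that inhibit the cysteine cathepsins. The transcription factor TFEB binds a short palindromic element, the CLEAR element, near many lysosomal genes. Phagocytes such as macrophages and microglia are known for a high content of lysosomal enzymes.

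Each value is the log2 of the p75High level over the p75Low level, so a negative value means a lower level in p75High. Values are given as mean ± SD over 4 arrays, with the standard error and adjusted p of limma, a linear model fitted across all genes. A gene was called when its two-sided p, adjusted by Benjamini-Hochberg over all 22187 genes, was under 0.05. The number of probes well above background ran from 22464 to 28062 in the p75High channels and from 23044 to 26174 in the p75Low channels. Ratios of different arrays correlated weakly across all genes, with r from 0.174 to 0.25, and the median SD of a gene over the arrays was 1.14. Ngfr itself was higher in p75High by 5.80 ± 0.53 (adjusted p = 0.0262, limma).

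Of the 33 genes tested, 5 were lower in p75High and 0 were higher at an adjusted p under 0.05. Over all genes tested, 0.437% were called lower and 0.311% were called higher. At an unadjusted p under 0.05 in limma, 12 of the 33 were lower and 0 were higher, where 6.9% of all genes were lower and 5.82% were higher at that level. The mean ratio was negative for 27 of the 33 and for 51.4% of all genes. The ratio was negative on all 4 arrays for 15 of the 33 genes and positive on all 4 for 0. Over all genes, 13% were negative on all 4 arrays and 12.5% were positive on all 4. The median ratio of the 33 genes was -1.03, beside -0.03 over all genes. With the 4 renamed genes included, 6 of 37 were called lower.

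**Figure D1:**
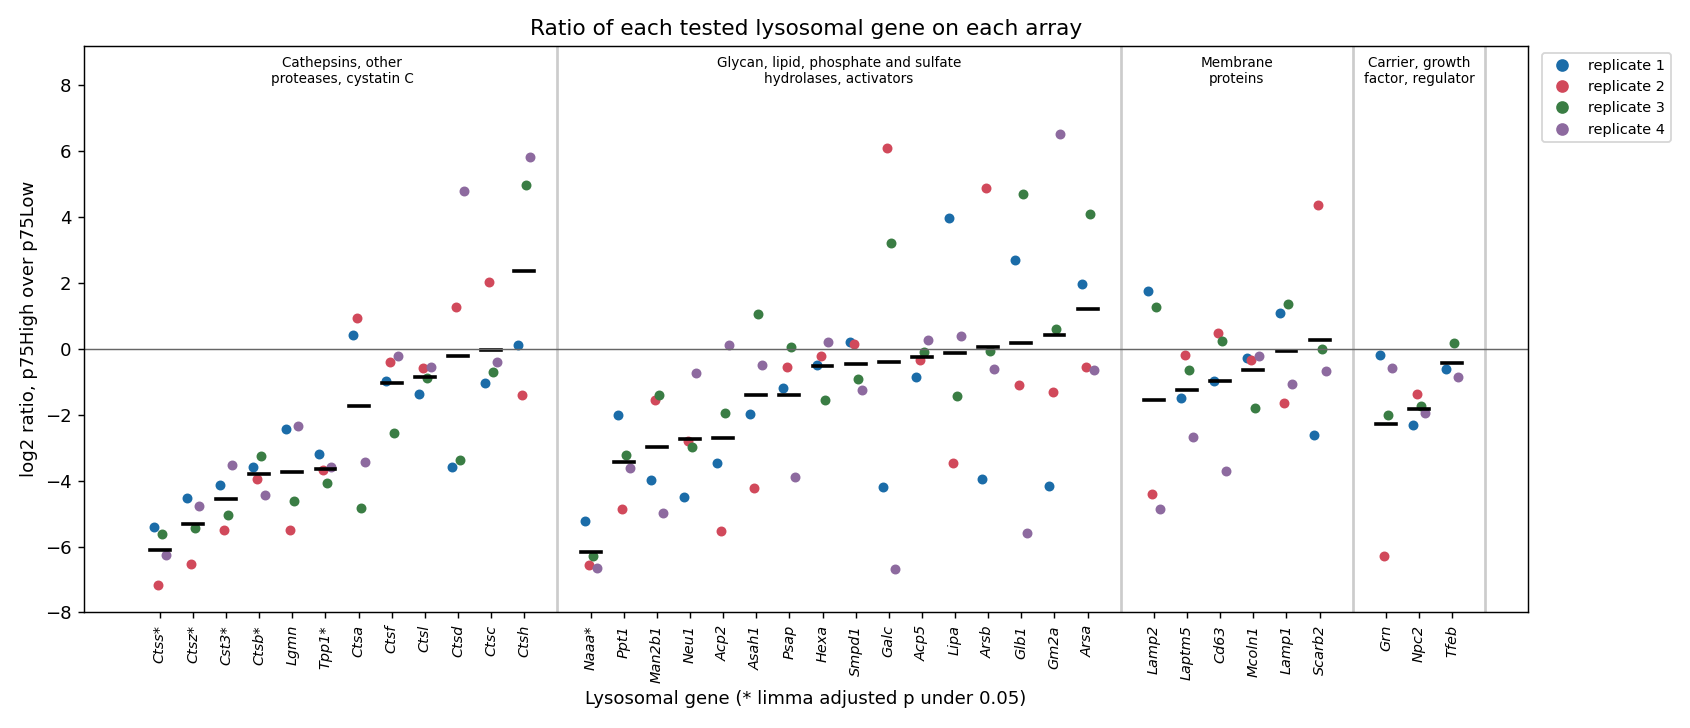
Log2 ratio of p75High over p75Low (vertical axis) for each tested lysosomal gene (horizontal axis, grouped by role), with 1 point for each of the 4 arrays and a black bar at the mean. The points of Ctss, Ctsz, Cst3, Ctsb, Tpp1 and Naaa, marked with an asterisk, all lie below -3, while the points of Galc run from -6.69 to 6.11.

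The cathepsins, other proteases and cystatin C held all 5 calls. Of 11 tested in this group, 10 had a negative ratio, 8 were negative on all 4 arrays, and 7 were lower at an unadjusted p under 0.05. Their median was -3.63. The remaining member of the group with a probe, Ctsk, was not well above background on any array in either channel and was not tested.

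Ctss encodes cathepsin S, a cysteine protease of antigen-presenting cells that cuts the invariant chain of MHC class II. Its normalised log2 intensity in p75High was 9.57, 8.06, 8.88 and 8.91 in replicates 1 to 4. In p75Low it was 14.98, 15.22, 14.49 and 15.17. The highest p75High value lay far below the lowest p75Low value. The ratio was -6.11 ± 0.79 (SE 0.41, n = 4), which is 69.1-fold lower in p75High, with an adjusted p of 0.0262 (limma). The other Ctss probe gave -4.90, -6.06, -5.54 and -4.61, so both probes were strongly negative on every array.

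Ctsz encodes cathepsin Z, also called cathepsin X, a carboxypeptidase. It stood at 9.60, 8.38, 8.46 and 10.38 in p75High and at 14.12, 14.91, 13.90 and 15.16 in p75Low on the log2 intensity scale. The populations did not overlap, and the array with the smallest gap, replicate 1, still had a ratio of -4.52. The mean ratio was -5.32 ± 0.90 (SE 0.44), a 39.9-fold lower level in p75High (adjusted p = 0.0302, limma, n = 4).

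Tpp1 encodes tripeptidyl peptidase 1, a serine protease that removes tripeptides from the ends of proteins and is mutated in a childhood form of neuronal ceroid lipofuscinosis. Its log2 intensity was 8.13, 6.78, 7.33 and 9.60 in p75High and 11.31, 10.47, 11.42 and 13.17 in p75Low. The levels moved between arrays in both populations together, and the gap within an array stayed narrow, from -4.08 to -3.18. Its SD of 0.37 was the smallest among the called members. The ratio was -3.63 (SE 0.30), a 12.4-fold lower level in p75High, with an adjusted p of 0.0292 in limma (n = 4).

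The Ctss and Ctsz probes below are the stretches of transcript on which their ratios rest. All probes shown are 60 bases long, are given 5′ to 3′ as in the array file, and each has at least 1 reading frame without a stop. Their place in the gene model (exon, coding part or other) was not analysed here. By the array file (build rn4), the Ctss probe lies at chr2:190466474-190466533 (plus strand). No coordinate was given for the Ctsz probe. The Ctsh probe (chr8:94986941-94989247, plus strand) and the Galc probe (chr6:122379881-122387949, minus strand) are shown for contrast, because their ratios changed sign between arrays. Their ranges span 2307 and 8069 bases, so each is wider than the 60 bases of the probe.
Ctss: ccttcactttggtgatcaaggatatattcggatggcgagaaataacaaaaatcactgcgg
Ctsz: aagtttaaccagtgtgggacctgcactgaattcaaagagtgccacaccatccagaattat
Ctsh: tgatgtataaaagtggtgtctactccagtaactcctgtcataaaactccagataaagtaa
Galc: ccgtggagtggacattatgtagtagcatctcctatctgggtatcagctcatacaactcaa

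Ctsb encodes cathepsin B, a broadly expressed cysteine protease. Its log2 intensity was 11.23, 10.74, 11.23 and 10.14 in p75High and 14.82, 14.69, 14.49 and 14.56 in p75Low. The p75Low values lay close together and above every p75High value. The ratio was -3.81 ± 0.50 (SE 0.33), a 14.0-fold lower level in p75High (adjusted p = 0.0313, limma, n = 4).

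Cst3 encodes cystatin C, a secreted inhibitor of cysteine cathepsins. It measured 8.14, 6.94, 8.49 and 8.17 in p75High and 12.27, 12.42, 13.53 and 11.68 in p75Low on the log2 intensity scale. The populations did not overlap, and this inhibitor was lower in the same population as the called proteases. The ratio was -4.54 ± 0.89 (SE 0.44), a 23.3-fold lower level (adjusted p = 0.0394, limma, n = 4). The other Cst3 probe, which shares 40 bases with the first, gave a mean of -4.49.

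**Figure D2:**
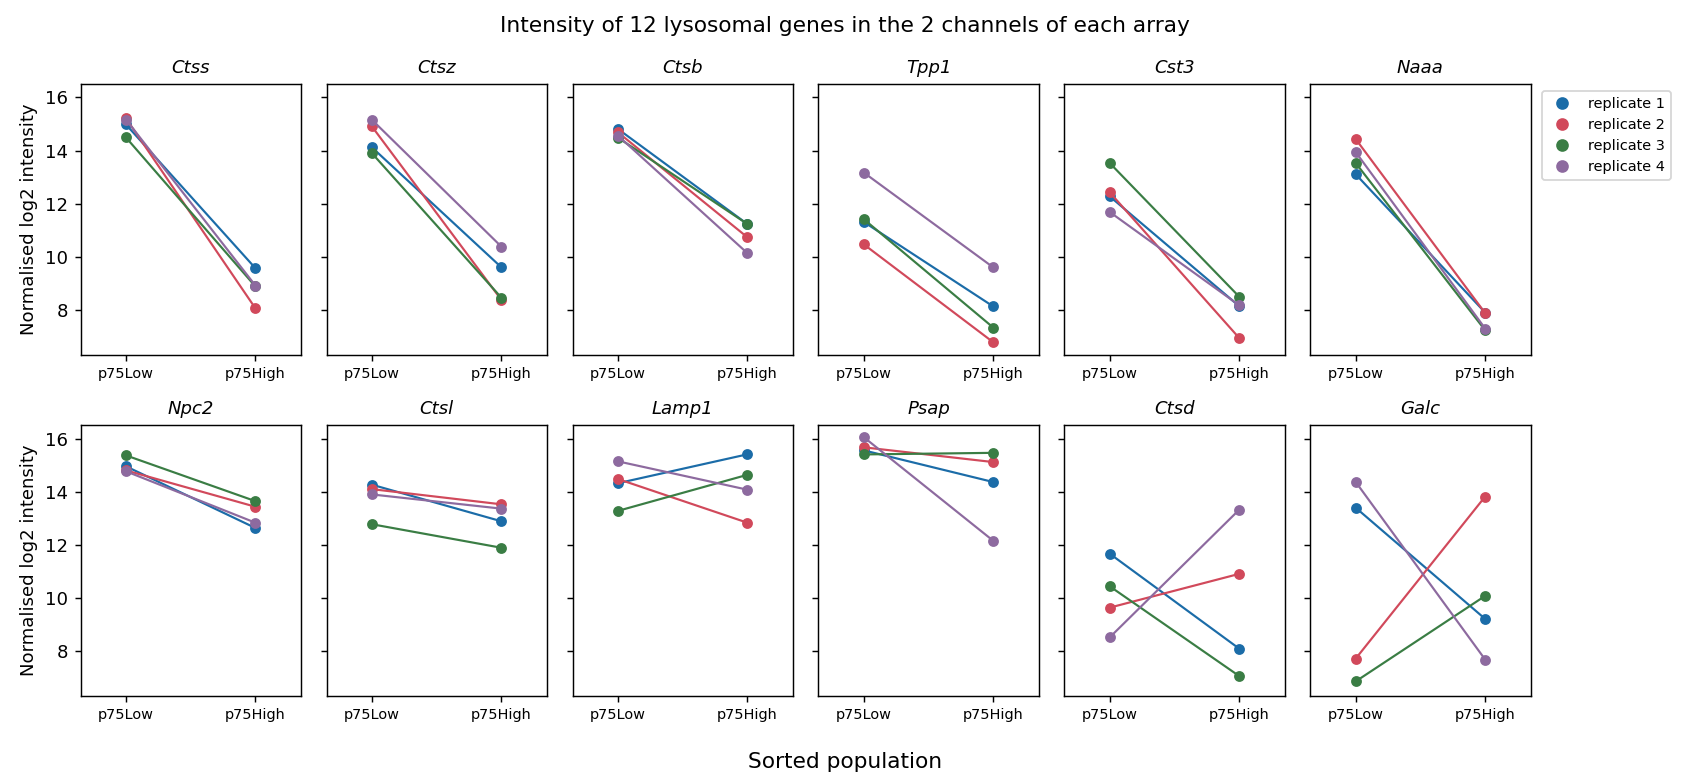
Normalised log2 intensity (vertical axis) of 12 lysosomal genes in the p75Low and p75High channels (horizontal axis), with 1 line for each of the 4 arrays. The lines of Ctss, Ctsz, Ctsb, Tpp1, Cst3, Naaa, Npc2 and Ctsl fall on all 4 arrays, whereas those of Lamp1, Ctsd and Galc rise on some arrays and fall on others.

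The other proteases of the group did not pass the test. Lgmn encodes legumain, an asparaginyl endopeptidase that processes cathepsins, and its ratios of -2.45, -5.50, -4.60 and -2.35 were negative on every array with a wide spread (mean -3.72, adjusted p = 0.167, limma, n = 4). Ctsl, for cathepsin L, measured -1.38, -0.57, -0.89 and -0.53, with a mean of -0.84 ± 0.39 and an adjusted p of 0.375 (limma, n = 4). Its second probe read -4.62 in replicate 4 against -0.60 to -0.21 in the others, so the probes differed most on that array. Ctsf, for cathepsin F, had -0.97, -0.39, -2.55 and -0.21. All 3 genes were thus below 0 on each array without passing the threshold.

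Ctsd, for the aspartic protease cathepsin D, had ratios of -3.58, 1.27, -3.38 and 4.81, and its mean of -0.22 ± 4.03 describes no array. Ctsh, for the aminopeptidase cathepsin H, had the highest mean of the 33 genes at 2.38 ± 3.55, from 0.12, -1.40, 4.96 and 5.81. High values in replicates 3 and 4 and a negative one in replicate 2 left it without a call (adjusted p = 0.537, limma, n = 4). Ctsc, for dipeptidyl peptidase 1, averaged -0.02 ± 1.40. Ctsa, for protective protein cathepsin A, which stabilises neuraminidase and beta-galactosidase, averaged -1.72 ± 2.84. On the brightest probe, replicates 1 and 2 were positive and replicates 3 and 4 were below -3. The other Ctsa probes read 3.78 and -2.33 in replicate 1, so they differed in sign there, and all 3 probes were below -3 in replicates 3 and 4.

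**Figure D3:**
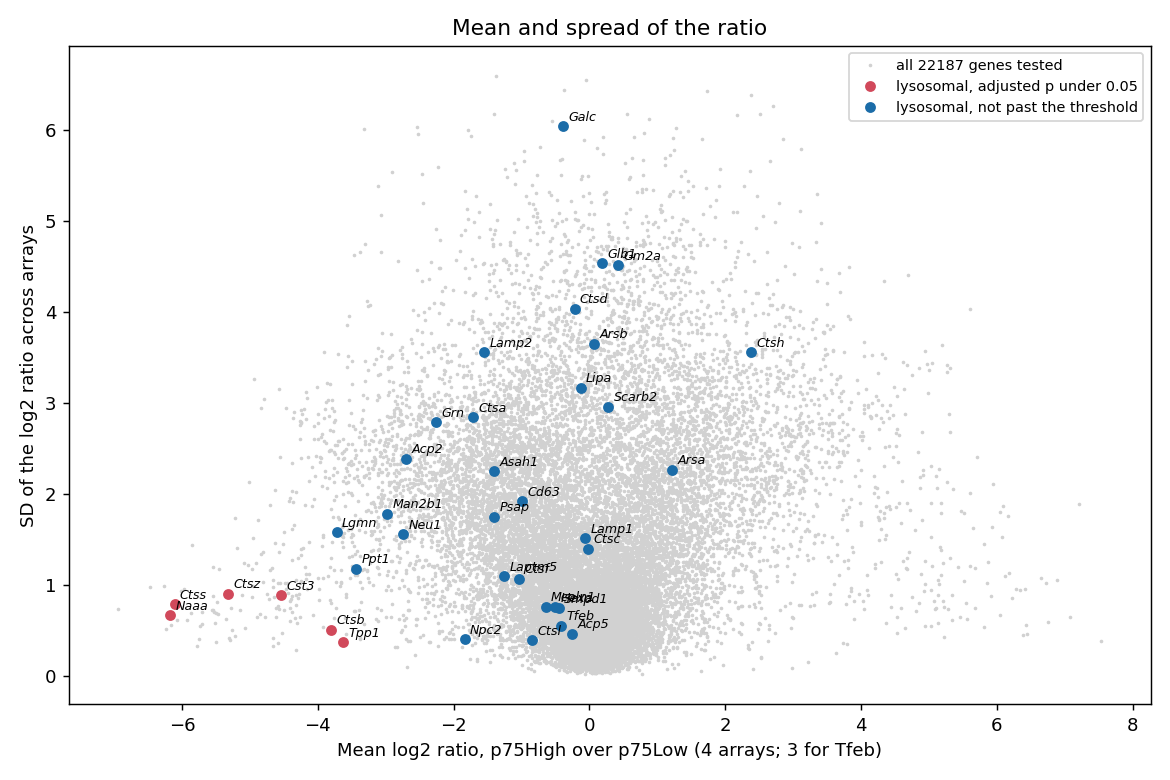
SD of the log2 ratio over the arrays (vertical axis) against the mean log2 ratio of p75High over p75Low (horizontal axis) for all 22187 genes tested (grey) and the tested lysosomal genes (coloured and named, red where the adjusted p was under 0.05). The 6 called genes lie at the left with SDs of 0.37 to 0.90, and Galc lies near 0 with an SD of 6.04.

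Among the hydrolases of glycans, lipids, phosphate and sulfate esters and their activators, 0 of 14 tested genes were called by limma. At an unadjusted p under 0.05, 4 were lower and 0 were higher. The ratio was negative for 10 of them and negative on all 4 arrays for 3, with a median of -0.48. Gla, for alpha-galactosidase, was not well above background on any array, and Gusb, for beta-glucuronidase, passed in 1 p75High and 2 p75Low channels, so neither was tested.

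Naaa, one of the renamed genes, encodes the acid amidase that cleaves N-acylethanolamines such as palmitoylethanolamide. Its log2 intensity was 7.90, 7.88, 7.23 and 7.30 in p75High and 13.11, 14.43, 13.53 and 13.94 in p75Low. The values within each population lay close together and far from those of the other. The ratio was -6.18 ± 0.66 (SE 0.37), a 72.4-fold lower level in p75High and the most negative of the 37 genes (adjusted p = 0.0262, limma, n = 4).

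Ppt1 encodes palmitoyl-protein thioesterase 1, which removes fatty acids from proteins and is mutated in infantile neuronal ceroid lipofuscinosis. It stood at 11.08, 8.23, 6.96 and 8.99 in p75High and at 13.10, 13.10, 10.19 and 12.62 in p75Low. The populations overlapped across arrays, although p75High was the lower channel on each. The ratio of -3.44 ± 1.17 (SE 0.54) had an adjusted p of 0.118 (limma, n = 4).

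Neu1 encodes the lysosomal sialidase, which removes sialic acid from glycoproteins. Its ratios were -4.49, -2.78, -2.98 and -0.72, with a mean of -2.74 ± 1.55 (SE 0.68, adjusted p = 0.271, limma, n = 4). The other Neu1 probe had -4.10, -2.03, -1.91 and 0.27. The probes ranked the arrays alike at the extremes, with replicate 1 lowest and replicate 4 highest in both. They overlap, and the 26 bases that both hold are in capitals below (build rn4, minus strand, chr20:3999866-3999925 for the first and chr20:3999832-3999891 for the second by the array file), which is why they are no independent measurements.
Neu1, other probe: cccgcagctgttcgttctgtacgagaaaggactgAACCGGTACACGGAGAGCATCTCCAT
Neu1, probe used: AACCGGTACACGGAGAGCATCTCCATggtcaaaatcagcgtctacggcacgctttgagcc

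Man2b1, for lysosomal alpha-mannosidase, had ratios of -3.98, -1.56, -1.40 and -4.98 (mean -2.98 ± 1.78, adjusted p = 0.284, limma, n = 4). Acp2, for a lysosomal acid phosphatase, averaged -2.70 ± 2.38 and was well above background in p75High on 1 array against 3 in p75Low. Asah1, for acid ceramidase, averaged -1.40 ± 2.24, with its probes apart in replicate 3 at 1.07 and -3.83. Smpd1, for acid sphingomyelinase, averaged -0.46 ± 0.74, and Hexa, for the alpha subunit of beta-hexosaminidase, -0.51 ± 0.75. Psap encodes the precursor of the saposins, which present lipids to these enzymes. It had ratios of -1.19, -0.56, 0.06 and -3.90, so replicate 4 carried most of its mean of -1.40.

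Galc encodes galactosylceramidase, which degrades the myelin lipid galactosylceramide. Its ratios of -4.19, 6.11, 3.22 and -6.69 gave a mean of -0.39 ± 6.04, the widest spread of any tested member. Each channel covered a wide range, from 7.68 to 13.82 in p75High and from 6.86 to 14.37 in p75Low. Glb1, for beta-galactosidase, at 0.19 ± 4.54, Gm2a, for the GM2 activator, at 0.42 ± 4.51, and Arsb, for arylsulfatase B, at 0.07 ± 3.65, also had arrays of opposite sign. Lipa, for lysosomal acid lipase, at -0.13 ± 3.16, did likewise. Acp5, for tartrate-resistant acid phosphatase, stayed near 0 at -0.25 ± 0.46. Arsa, for arylsulfatase A, averaged 1.22 ± 2.27 on the brighter probe, which reached 4.09 in replicate 3. Its other probe read 0.04, -0.32, -0.07 and 0.35, so the positive value was not shared by both.

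**Figure D4:**
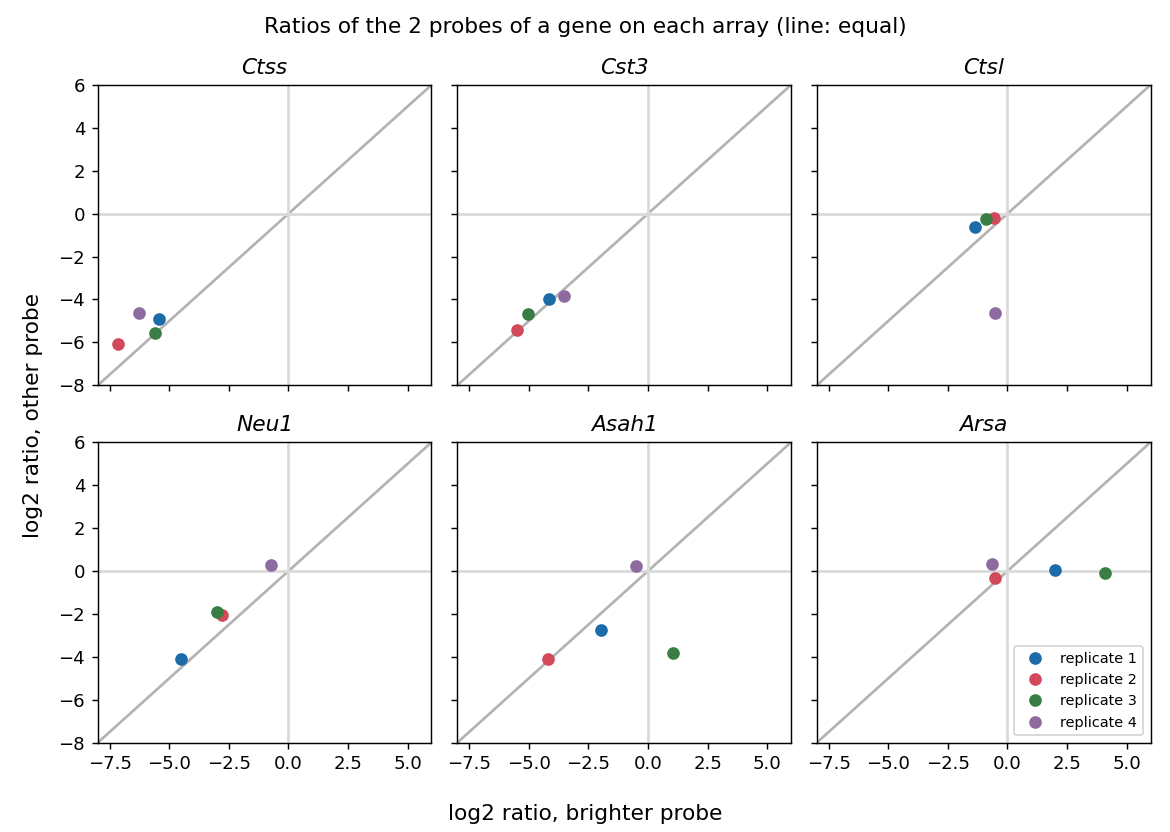
Log2 ratio of p75High over p75Low from the other probe (vertical axis) against the brighter probe (horizontal axis) for 6 lysosomal genes with a pair of probes, 1 point for each of the 4 arrays, with a line where both are equal. Points of Cst3 lie near the line and those of Ctss are all below -4 on both axes, while replicate 4 of Ctsl and replicate 3 of Asah1 and of Arsa lie away from it.

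Of the membrane proteins, 6 were tested and 0 were called, or lower at an unadjusted p under 0.05, in limma. Their median was -0.82, and 2 were negative on all 4 arrays. Laptm5, a transmembrane protein of blood cells, had ratios of -1.48, -0.20, -0.65 and -2.68 (mean -1.25 ± 1.09, SE 0.51, adjusted p = 0.414, limma, n = 4). Mcoln1 encodes mucolipin 1, the calcium channel of the lysosomal membrane. It measured -0.26, -0.34, -1.78 and -0.20 (mean -0.65 ± 0.76, SE 0.40, adjusted p = 0.541, limma, n = 4), and it was well above background in p75High on 1 array.

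The abundant structural proteins of the lysosomal membrane changed sign from array to array. Lamp1 had ratios of 1.09, -1.65, 1.36 and -1.07, which average -0.07 ± 1.51. Lamp2 had 1.77, -4.39, 1.28 and -4.85, which average -1.55 ± 3.56. Both were positive in replicates 1 and 3 and negative in replicates 2 and 4. Cd63, a tetraspanin of late endosomes, averaged -0.99 ± 1.92, and Scarb2, the receptor that carries beta-glucocerebrosidase to the lysosome, 0.27 ± 2.95. Scarb2 was well above background in p75High on 1 array.

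Npc2 encodes the soluble cholesterol carrier of the lysosome. Its log2 intensity was 12.64, 13.44, 13.65 and 12.84 in p75High and 14.96, 14.81, 15.37 and 14.77 in p75Low. The populations did not overlap, yet the difference was smaller than that of the called genes. The ratio was -1.84 ± 0.40 (SE 0.30), with an adjusted p of 0.137 (limma, n = 4). Man2b1, Neu1 and Ctsf, also not called, likewise had every p75High level below every p75Low level. The share of all genes without overlap was not counted. Grn encodes progranulin, a growth factor that is cut into granulins in the lysosome. Its ratios were -0.19, -6.27, -2.01 and -0.59, so replicate 2 set most of the mean of -2.27 ± 2.78 (SE 1.15, adjusted p = 0.485, limma, n = 4). Tfeb itself, a renamed gene, averaged -0.42 ± 0.55 on its brightest probe, which had readings on 3 arrays (n = 3). The other Tfeb probe read 0.05, -1.16, -0.002 and -2.02, with a mean of -0.78. That probe was well above background on 0 arrays in p75High and on 3 in p75Low.

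Other genes of the lysosome were counted by list. Of 16 further hydrolases, 0 were called and 3 were lower at an unadjusted p under 0.05 in limma, with a median of -0.80. Gaa, for acid alpha-glucosidase, was the lowest at -5.33, -3.13, -3.91 and -3.58, and its mean of -3.99 ± 0.95 just missed the threshold (adjusted p = 0.0552, limma, n = 4). The vacuolar proton pump, which acidifies the lysosome, had 19 subunits tested, of which 0 were called and 5 were lower at an unadjusted p under 0.05. Of these 19, 18 had a negative ratio and 6 were negative on all 4 arrays, with a median of -1.09. Atp6ap1, an accessory subunit, had ratios of -2.43, -2.33, -2.86 and -3.43 (adjusted p = 0.0597, limma, n = 4).

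Among 7 genes that sort lysosomal enzymes, 0 were called and 1 was lower at an unadjusted p under 0.05, with a median of -0.75. Sort1, for the sorting receptor sortilin, averaged -3.04 ± 2.68, and M6pr, for a mannose 6-phosphate receptor, -1.51 ± 2.77. The mean was negative for 5 of the 7 sorting genes, but 0 were negative on all 4 arrays. Vps35 averaged 2.82 ± 3.76, and Gga1, positive on all 4 arrays, 0.46 ± 0.29. The 7 relatives of Tfeb and nutrient regulators had 0 called genes, 0 at an unadjusted p under 0.05 in limma and a median of -0.44, with Tfe3 at -0.62 ± 2.62. Among 5 other cystatins 0 were called and 2 were lower at an unadjusted p under 0.05, and Cstb, for cystatin B, averaged -2.71 ± 2.17. Of 12 other lysosomal membrane proteins and transporters, Cd68 alone was called lower, at -4.56 ± 0.73 (adjusted p = 0.0313, limma, n = 4), and the median of that list was 0.23. Cd68 is also a macrophage marker.

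Markers of microglia and macrophages moved with the called lysosomal genes. Of 20 markers, 17 were tested, all 17 had a negative ratio, 14 were negative on all 4 arrays and 8 were called lower, with a median of -4.34. They ranged from -6.08 for Csf1r, the receptor for macrophage colony-stimulating factor, to -1.49 for Cd74, the invariant chain. Their summed normalised intensity ran from 11399 to 19924 in p75High and from 285255 to 421579 in p75Low. None of the 17 was at background throughout a population. Of 12 markers of ensheathing and Schwann glia, 1 was called higher (Ngfr), and their summed intensity was 30384 to 43410 in p75High and 2388 to 15607 in p75Low. Sox10, which defines the glial lineage, had a ratio of 4.56 ± 1.90 (adjusted p = 0.155, limma, n = 4). Of 10 fibroblast markers, all 10 with a probe, only 6 were tested. Of these 6, 0 were called, while 2 were lower and 2 were higher at an unadjusted p under 0.05 in limma. The higher were Postn at 4.80 ± 1.60 and Col1a1 at 2.73 ± 1.204, and both were positive on all 4 arrays. The lower were Col1a2 at -2.71 ± 1.48 and Thy1 at -0.99 ± 0.38, and both were negative on all 4 arrays. The mean ratio was negative for 4 of the 6 fibroblast markers, with a median of -0.94. The 6 tested fibroblast markers had sums of 60635 to 84229 in p75High and 13284 to 34944 in p75Low, and the untested ones are not in these sums. The summed intensity of the 33 lysosomal genes was 149473 to 163194 in p75High and 265814 to 375959 in p75Low. Over all genes tested the sums were 38032297 to 43606451 in p75High and 32907067 to 44820572 in p75Low. Such sums weigh the brightest genes of a list most. The part of these other cells in the lysosomal ratios was not tested. In sorted bulk samples, fewer cells of a type and less RNA per cell cannot be told apart.

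**Figure D5:**
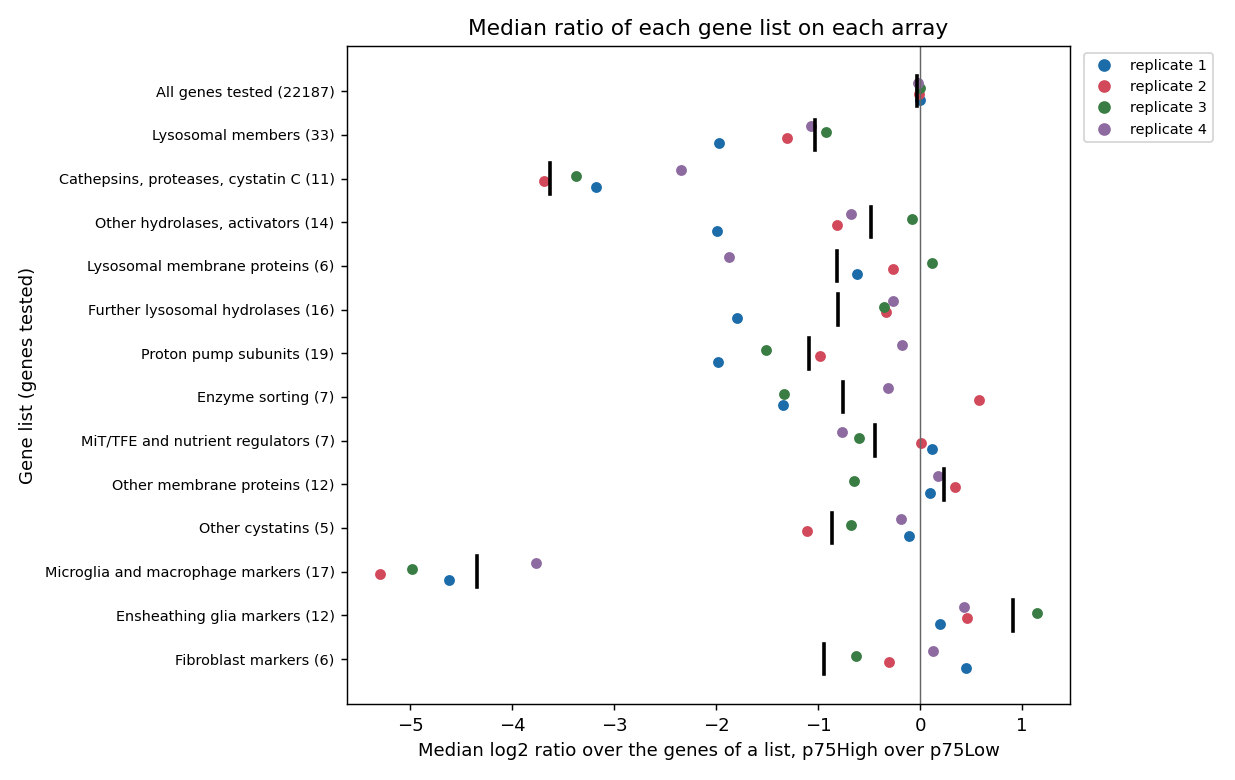
Median log2 ratio of p75High over p75Low (horizontal axis) of each gene list (vertical axis, with the number of genes tested), 1 point for each of the 4 arrays and a black bar at the median of the genes' mean ratios. The cathepsin, protease and cystatin C group has its bar at -3.63 and the microglia and macrophage markers at -4.34, while all genes sit at -0.03.

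The promoters of the lysosomal genes were searched for 3 short motifs on both strands, in windows from 250 bases before to 50 after the gene start (RefSeq, GRCr8). Windows were given for 35 of the 42 genes. The CLEAR letters TCACGTGA, a palindrome, were held by 0.777% of all 33469 windows and by 4 of these genes, Ctsd, Galc, Lamp1 and Mcoln1. Of these, 0 were called, where 6 of all 37 tested lysosomal genes were called lower. Their ratios, given above, averaged between -0.65 and -0.07. On single arrays those of Ctsd ran from -3.58 to 4.81 and those of Galc from -6.69 to 6.11. The E-box CACGTG, which lies inside the CLEAR letters, was held by 6.42% of all windows and by 8 genes, which added Cd63, Ctsf, Glb1 and Idua. The letters GAGGAAGT, a sequence of the kind bound by the macrophage factor PU.1, were held by 2.42% of all windows and by Ctsc, Ctss and Gla. Ctss was called lower, Ctsc averaged -0.02 ± 1.40 and was not called, and Gla was not tested. No window was given for Ctsb. In Ctss the match is on the minus strand, begins 17 bases before the start, and so reads as ACTTCCTC below.

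Shown are the 200 bases before the start of Ctss, the only called gene with a match, and of Ctsd, Galc and Lamp1, which hold the CLEAR letters before their start and were not called. Capitals mark the motif matches. The windows are chr2:185775196-185775395 (plus strand) for Ctss, chr1:206968822-206969021 (minus strand) for Ctsd, chr6:123245560-123245759 (minus strand) for Galc and chr16:83075064-83075263 (minus strand) for Lamp1. Each is written 5′ to 3′ in the direction of the gene. A match is a run of letters and not a shown binding site.
Ctss: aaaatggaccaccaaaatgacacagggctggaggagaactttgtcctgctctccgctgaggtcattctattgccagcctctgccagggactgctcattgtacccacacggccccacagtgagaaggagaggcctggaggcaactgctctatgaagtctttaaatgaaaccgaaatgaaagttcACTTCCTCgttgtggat
Ctsd: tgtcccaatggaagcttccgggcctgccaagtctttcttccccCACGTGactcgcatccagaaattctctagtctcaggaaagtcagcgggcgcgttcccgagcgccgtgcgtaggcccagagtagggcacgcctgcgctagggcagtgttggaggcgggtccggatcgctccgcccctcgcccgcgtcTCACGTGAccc
Galc: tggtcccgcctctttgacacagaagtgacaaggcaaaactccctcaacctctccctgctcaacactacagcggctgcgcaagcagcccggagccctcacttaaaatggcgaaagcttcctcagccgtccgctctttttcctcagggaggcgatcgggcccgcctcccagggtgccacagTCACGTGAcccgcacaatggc
Lamp1: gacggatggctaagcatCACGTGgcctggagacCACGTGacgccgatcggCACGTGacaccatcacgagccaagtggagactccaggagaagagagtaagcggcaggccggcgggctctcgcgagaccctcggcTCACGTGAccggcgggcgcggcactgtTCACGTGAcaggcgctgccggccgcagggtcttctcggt

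With any 1 array left out, 0 of all genes tested were called by limma in either direction. The loss of calls was thus not particular to the lysosomal genes, and its cause was not tested. Among the 33 genes, 9 to 11 were then lower at an unadjusted p under 0.05. The ratios of the called genes without 1 array ran from -6.34 to -5.76 for Ctss, from -5.58 to -4.91 for Ctsz and from -4.89 to -4.23 for Cst3. They ran from -3.99 to -3.60 for Ctsb, from -3.78 to -3.48 for Tpp1 and from -6.50 to -6.02 for Naaa. Without the filter on dim probes, where 36 members were tested among all probes, 3 were called lower, because Ctsz and Cst3 rose to adjusted p of 0.0596 and 0.0782 (limma).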

How the data were processed

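The samples were 4 paired biological replicates of cultured ensheathing cells sorted into p75High and p75Low, per the labels. Messenger RNA was amplified by PCR with the SuperAmp kit and 250 ng went into each labelling, per the labels' protocols. This amplification and the fixed dyes can both alter the ratios and were not corrected for. The arrays (Agilent design 014879) were read with Feature Extraction 10.5.1.1, per the file headers (10.5 in the submitters' processing notes). Deposited spot intensity values were the mean spot brightness and the median local background in each channel, not normalized, per the file headers. The deposited log10 ratios, per the file headers, were made from background-subtracted and dye-normalized signals, and the authors' value table held identical log10 values (largest difference 0, median 0 in each column). All 4 arrays lay on 1 slide.

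Background correction was by normexp with an offset of 50, and each array was normalized by loess with a span of 0.3, in limma 3.58.1 under R 4.3.3, with the 1639 control spots at weight 0. Intensities per channel came from the same arrays after Aquantile normalization between arrays. Of 173516 gene spot readings, 1112 (0.64%) marked as outliers were left out, and 0 were saturated. Of 41012 probes, 24941 were kept because 1 of their channels exceeded background clearly on 3 or more of the 4 arrays. Each gene was represented by its brightest kept probe. Names were updated through a RefSeq table of GRCr8 (10835 probes by accession, 5196 by symbol, 3478 by older symbol, 21503 unmatched). The log2 ratio was tested against 0 with lmFit and eBayes, and the script was tested on simulated data. The number of arrays limits the precision.

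The ratio within an array holds the pairing. After removal of the group means, the channels of the same array correlated across genes with r of 0.134, 0.108, 0.0615 and 0.226, and the highest value with another array was 0.0324. Members and gene lists were chosen with earlier results of these data known. Full statistics are given for genes past the threshold and, in a group with none by the name in the file, for those with the 2 smallest p. Single genes named from the other lists were chosen after their values were seen. Alternatives varied the background correction, normalization, filter, probe choice, outlier spots, pairing and arrays, and matching by updated names was added after the data were seen. The sequence of 1 probe is not reported here.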

Additional observations from a re-analysis of the deposited data

Results flagged for a closer look

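Among 51 sets of 4 array values (the tested members and the medians of the lists), 2 had 1 array far from the rest, and chance gives about 1 in 20. Mcoln1 had a ratio of -1.78 in replicate 3, where the other arrays lay between -0.34 and -0.20. The median of the further lysosomal hydrolases was -1.79 in replicate 1, where the other arrays lay between -0.35 and -0.26. The causes were not tested.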

How the results depend on the processing

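The members called lower numbered 5 with no background correction, the stricter filter, the median over probes or the outlier spots kept, and 4 with the scanner's own ratios or median centring. With no replicate block, where the pairing of the channels was ignored, 5 members were lower, and 166 genes in all were lower and 177 higher. The counts over all genes were 97 lower and 69 higher as reported, 154 and 111 with the scanner's ratios, and 52 and 37 with no filter on dim probes. Members called lower fell to 3 with no filter. Leaving out 1 replicate at a time gave 0 calls in each count, over all genes too (limma, range 0 to 0), with 1022 to 1218 genes lower and 809 to 1155 higher at an unadjusted p under 0.05, and adjusted p of the 6 called genes from 0.0964 to 0.171. The median of the members ran from -1.45 without replicate 3 to -0.87 with median centring, which itself moved the median of all genes from -0.03 to 0.13. Tpp1 had an adjusted p of 0.0532 with the scanner's ratios, and Ctsb 0.0627 with median centring. Genes that were not called and changed sign were Ctsc (0.10) and Arsb (-0.045) with no background correction; Glb1 (-0.68), Lipa (0.18), Gm2a (-0.088), Scarb2 (-0.74) and Arsb (-1.01) with the scanner's ratios; and Ctsc (0.20) and Lamp1 (0.22) with median centring. With 1 replicate left out at a time, 9 uncalled genes had either sign: Ctsc from -0.71 to 0.31, Ctsd from -1.90 to 0.90, Glb1 from -1.32 to 2.11, Lipa from -1.503 to 0.98, Gm2a from -1.62 to 1.94, Lamp1 from -0.54 to 0.46, Scarb2 from -1.10 to 1.23, Arsb from -1.54 to 1.41 and Galc from -2.55 to 1.71. The cause was not tested. Fewer arrays leave fewer degrees of freedom, and no filter adds genes to the adjustment. Ratios of genes near background, such as Acp2, Mcoln1 and Scarb2, are limited by their signal.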
